A study of Homo sapiens with 6 samples.

Results

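The Hippo-YAP pathway and its best known target genes were examined in CaSki cells treated with calcitriol. The set held 10 genes, named *YAP1*, *WWTR1*, *TEAD1*, *LATS1*, *LATS2*, *AMOTL1*, *AMOTL2*, *ANKRD1*, *CCN1* and *CCN2*, and the array table was searched for features that carry 1 of these symbols and no other. 9 of the 10 genes had such a feature, out of 33458 genes with a feature of their own, and the brightest feature over the 6 arrays stood for each gene. The only feature that names *AMOTL2*, which encodes an angiomotin-like protein, carries 3 gene symbols, and no value is given for this gene.

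CaSki is an established epithelial line from a cervical cancer and carries human papillomavirus type 16. The cells were incubated for 24 h with 10 nM calcitriol, the hormonal form of vitamin D, or with its ethanol vehicle, in medium with charcoal-stripped serum. 3 RNA pools from calcitriol-treated cells and 3 from vehicle-treated cells were hybridized to 1 Clariom D array each. Every pool mixed RNA from the same independent experiments. The p-values therefore reflect how much the pools differ within a condition, a spread that can be mainly technical, and the study covers 1 cell line, 1 dose and 1 time.

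In the Hippo pathway, a cascade of kinases ends in LATS1 and LATS2, which phosphorylate the co-activators YAP (gene *YAP1*) and TAZ (gene *WWTR1*) and keep them out of the nucleus. When the kinases are inactive, as in sparse or stretched epithelial cells, YAP and TAZ enter the nucleus and bind TEAD transcription factors, and genes such as *CCN1*, *CCN2* and *ANKRD1* are transcribed. Since much of this regulation acts on the proteins, transcript levels of the co-activators do not report their activity, and in bulk RNA fewer cells of a kind and less RNA per cell cannot be told apart.

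TEAD proteins recognise the core CATTCC, which on the opposite strand reads as GGAATG. In RefSeq promoter windows (build GRCh38.p14), which run from 250 bases before a transcription start to 50 bases past it, 8 of the 10 genes matched 11 windows, and *CCN1* and *TEAD1* had no entry. The core, searched on both strands, was found in 5 of the 11 windows and in 14.0% of all 35116 windows. The 250 bases upstream of *CCN2* (chr6:131951373-131951622, minus strand) and *ANKRD1* (chr10:90921088-90921337, minus strand) are shown, 5′ to 3′ on the gene's strand with each core in capitals, because they were the windows with more than 1 core.
CCN2: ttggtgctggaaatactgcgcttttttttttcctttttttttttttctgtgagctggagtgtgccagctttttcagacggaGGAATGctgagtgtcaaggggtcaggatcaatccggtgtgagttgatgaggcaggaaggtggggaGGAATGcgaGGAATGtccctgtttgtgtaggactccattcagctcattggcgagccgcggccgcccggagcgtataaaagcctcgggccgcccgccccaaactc
ANKRD1: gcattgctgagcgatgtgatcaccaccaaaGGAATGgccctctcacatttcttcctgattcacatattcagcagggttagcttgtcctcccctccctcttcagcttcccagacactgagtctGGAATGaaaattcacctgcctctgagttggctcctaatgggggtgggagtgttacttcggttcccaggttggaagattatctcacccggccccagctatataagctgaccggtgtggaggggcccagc
The *CCN2* window held 3 cores, at -169 to -164, -104 to -99 and -95 to -90 from the start, and the *ANKRD1* window held 2, at -220 to -215 and -128 to -123. 1 core each lay in the windows of *YAP1* (-162 to -157), *LATS2* (10 to 15, past the start) and *AMOTL2* (-69 to -64). The AP-1 motif TGANTCA was present in 1 window each of *LATS1* (-245 to -239) and *ANKRD1* (-195 to -189) and in 7.71% of all windows. The direct repeat of the vitamin D response element, with 3 bases between its half-sites and searched on both strands, was found in 0 of the 11 windows and in 0.074% of all windows. A match is a description of these letters and not a binding site, and no match says only that the letters are not in this window.

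The signals are log2 values as deposited, and differences are log2 fold changes, calcitriol minus vehicle, with adjusted p-values over all 138745 features from limma. Array medians lay between 4.27 and 4.33. The level of the negative controls was set at 6.32, the 95th percentile of the mean signals of 612 such features, and a gene whose mean exceeded it was taken as above them. The median of these mean signals was 4.44, so a gene below the level can lie among the controls. *CYP24A1*, the calcitriol-degrading enzyme that serves as a check of the labels, had signals of 11.68, 12.82 and 13.27 in calcitriol pools 1 to 3, against 4.90, 4.31 and 5.77 in vehicle pools 1 to 3 (log2 fold change 7.60, standard error 0.46, adjusted p = 0.0137). No other feature passed an adjusted p of 0.05, so that 0.000721% of all features did. The adjusted p of *CYP24A1* was 0.204 without calcitriol pool 2, 0.0925 without calcitriol pool 3, 0.240 without vehicle pool 1, 0.102 without vehicle pool 2 and 0.914 with the ordinary variance (limma), while its log2 fold change stayed between 7.25 and 8.05 in all settings tried. Of 8 epithelial markers, 6 were measured and all 6 lay above the negative controls, as did the fibroblast markers *COL1A1* and *COL1A2*. The fibroblast markers *PDGFRB* and *DCN* and all 4 endothelial and leukocyte markers lay below the negative control level. The mean signal of the measured epithelial markers was 15.52 to 15.65 in calcitriol pools and 15.65 to 15.89 in vehicle pools, and that of the 4 measured fibroblast markers was 6.22 to 6.67 in calcitriol pools and 6.10 to 6.63 in vehicle pools, and their part in the results below was not tested.

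Of the 9 measured genes, *CCN1* was the only one called lower, that is, at a fold of at least 1.5 with an unadjusted p under 0.05, and 0 were called higher. None passed an adjusted p of 0.05 (limma), and at an unadjusted p under 0.05 the count was 1. The same rule called 1.56% of all features lower and 1.43% higher, and of 8239 protein-coding genes above the negative controls it called 4.31% lower and 0.218% higher. All 9 genes had a negative log2 fold change as deposited, but only 3 of 9 (*CCN1*, *CCN2* and *LATS2*) did when arrays were centred on the exogenous controls, which moves the median of all features to 0.34. With the deposited values the median of the 9 genes was -0.24, against a median of -0.16 over those 8239 genes, 78.0% of which were also negative. Over all features the median was -0.00 with 50.7% negative, and over 17618 protein-coding genes it was -0.09 with 66.9% negative. The 8239 genes leave out those below the negative control level, where *WWTR1*, *CCN2* and *ANKRD1* lay. 6 of the 9 genes lay above the negative controls: *YAP1*, *TEAD1*, *LATS1*, *LATS2*, *AMOTL1* and *CCN1*.

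**Figure D1:**
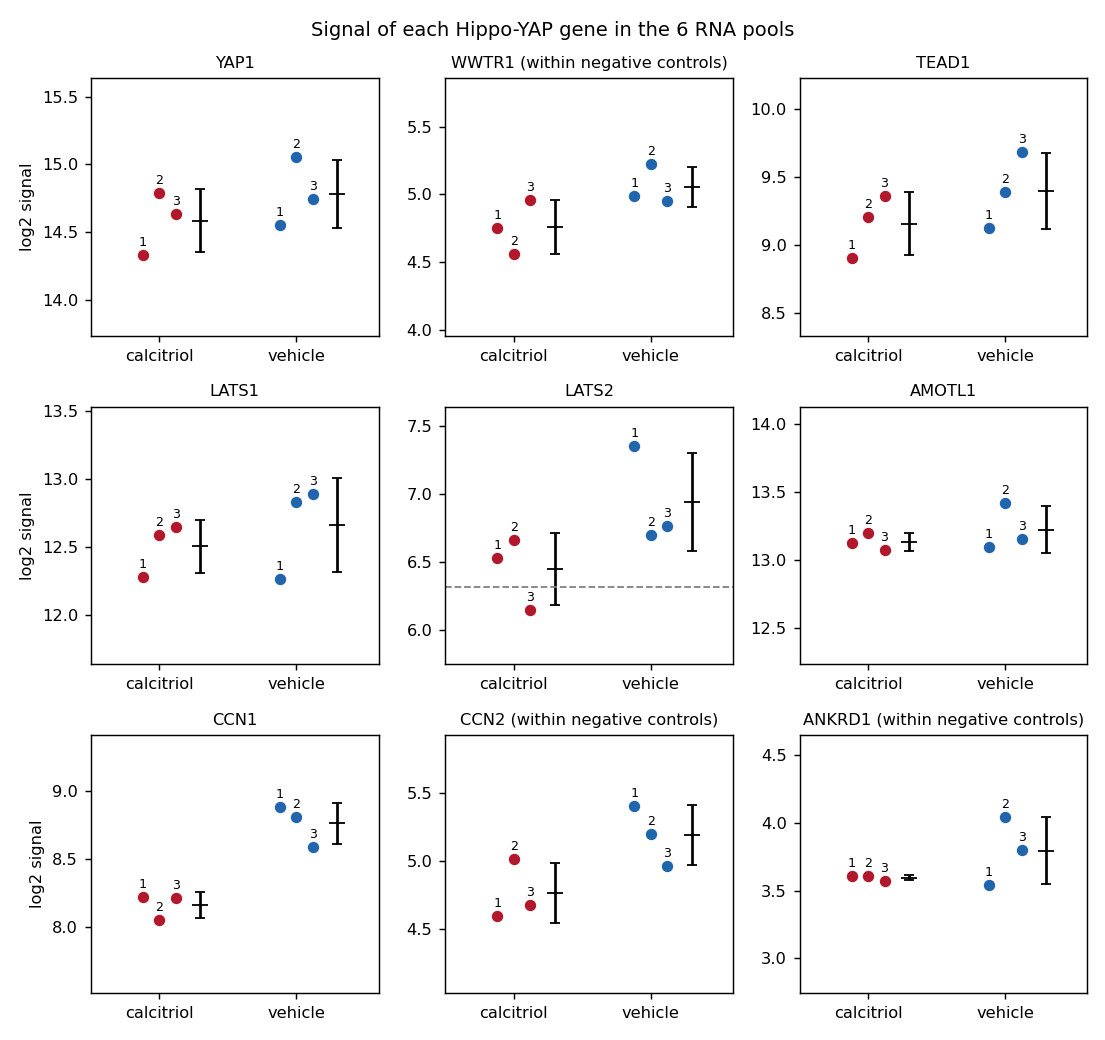
Log2 signal of each of the 9 measured genes in the 3 calcitriol pools (red, left) and the 3 vehicle pools (blue, right), with the pool number above each point and the mean ± SD beside the points; every panel spans the same height, and the dashed line is the negative control level of 6.32. The groups separate in the panels of *CCN1* and *LATS2* and overlap in the other 7.

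Among the co-activators, *YAP1* was well above the negative controls. Its signal was 14.33, 14.79 and 14.64 in calcitriol pools 1 to 3, against 14.55, 15.05 and 14.75 in vehicle pools 1 to 3. The groups overlapped, and the difference of -0.20 (standard error 0.21, 95% interval -0.67 to 0.27, adjusted p = 0.949, limma) was smaller than the SD of either group, 0.23 in calcitriol and 0.25 in vehicle. The pseudogenes *YAP1P1* and *YAP1P2* were looked up after the values were seen because such copies can share probes with their parent gene. They lay below the negative control level at means of 5.48 and 4.41 in calcitriol pools, against 5.67 and 4.51 in vehicle pools. *WWTR1*, the gene of TAZ, stayed below the negative control level in every pool.
Its signal was 4.75, 4.56 and 4.96 in calcitriol pools and 4.99, 5.22 and 4.95 in vehicle pools (-0.30, standard error 0.18, adjusted p = 0.921, limma). Calcitriol pool 3 lay just above vehicle pool 3, so the groups overlapped, and a difference at this signal cannot be read as one in TAZ transcript. Of the noncoding genes of the *WWTR1* locus, the intronic transcript *WWTR1-IT1* averaged 11.13 ± 0.21 in calcitriol pools and 11.22 ± 0.16 in vehicle pools (SD, n = 3 each), above the negative controls. The antisense gene *WWTR1-AS1* averaged 3.71 ± 0.03 in calcitriol pools and 3.85 ± 0.30 in vehicle pools, below the negative control level. The groups overlapped for both transcripts.

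*TEAD1*, which encodes the DNA-binding partner of the co-activators, had signals of 8.90, 9.21 and 9.36 in calcitriol pools 1 to 3, against 9.12, 9.39 and 9.68 in vehicle pools 1 to 3. Vehicle pool 1 lay within the calcitriol range, and vehicle pools 2 and 3 lay above it. The log2 fold change was -0.24 (standard error 0.21, 95% interval -0.73 to 0.24, adjusted p = 0.937, limma), within the SD of the vehicle pools (0.28).

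The terminal kinases differed in how far their groups lay apart. *LATS1* had 12.28, 12.59 and 12.65 in calcitriol pools 1 to 3, against 12.27, 12.83 and 12.89 in vehicle pools 1 to 3. Vehicle pool 1 was the lowest of all 6 pools, and the difference of -0.16 (standard error 0.22, adjusted p = 0.965, limma) lay well inside the spread of the vehicle pools (SD 0.34). *LATS2*, the other kinase of the pair, had 6.53, 6.66 and 6.15 in calcitriol pools 1 to 3, against 7.35, 6.70 and 6.77 in vehicle pools 1 to 3. The groups did not overlap, but the gap between calcitriol pool 2 and vehicle pool 2 was 0.04, and calcitriol pool 3 was under the negative control level. The log2 fold change of *LATS2* was -0.49 (standard error 0.24, 95% interval -1.03 to 0.05, adjusted p = 0.915, limma), a fold of 1.41 that did not meet the call, and it was -0.28 without vehicle pool 1 and -0.22 with the Tukey biweight average of the pools.

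*AMOTL1*, an angiomotin-like scaffold that can hold YAP in the cytoplasm, had the smallest difference of the 9 genes. Its signal was 13.13, 13.20 and 13.07 in calcitriol pools 1 to 3, against 13.09, 13.42 and 13.16 in vehicle pools 1 to 3. The difference was -0.09 (standard error 0.17, 95% interval -0.48 to 0.30, adjusted p = 0.977, limma), and only vehicle pool 2 lay above the calcitriol range. A second *AMOTL1* feature had the opposite sign, with 9.93, 9.83 and 9.60 in calcitriol pools and 9.30, 10.07 and 9.54 in vehicle pools (0.15, standard error 0.23), so the 2 features gave no common direction.

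Among the target genes, *CCN1* (also known as *CYR61*), which encodes a secreted matricellular protein, had lower signals in every calcitriol pool than in any vehicle pool, without passing the adjustment. Its signal was 8.22, 8.05 and 8.21 in calcitriol pools 1 to 3, against 8.88, 8.81 and 8.59 in vehicle pools 1 to 3. The highest calcitriol pool lay 0.37 below the lowest vehicle pool. The mean was 8.16 ± 0.09 in calcitriol pools and 8.76 ± 0.15 in vehicle pools (SD, n = 3 each), a log2 fold change of -0.60 (standard error 0.17, 95% interval -0.99 to -0.21), or 1.52-fold lower. The unadjusted p from limma was 0.00741 and the adjusted p was 0.915. With 3 pools a side, the smallest p of an exact two-sided permutation test is 0.1.
The fold lay close to the threshold, and the call was lost without calcitriol pool 2 (-0.55), without vehicle pool 1 (-0.54) or without vehicle pool 2 (-0.57), where the fold was under 1.5 and the difference stayed negative. The call was also lost by quantile normalization and by cyclic loess (-0.49 each). The exogenous controls, 4 poly-A and 4 hybridization control features for transcripts that are added to each sample, averaged 8.19, 8.40 and 8.11 in calcitriol pools 1 to 3, against 8.62, 8.57 and 8.53 in vehicle pools 1 to 3. Centred on them, the log2 fold change of *CCN1* was -0.26 and the call was lost, and the part of the control difference in this result was not tested.

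*CCN2* (also known as *CTGF*), the close relative of *CCN1* whose upstream bases with 3 TEAD cores are shown above, lay below the negative control level in every pool. Its signal was 4.59, 5.01 and 4.68 in calcitriol pools 1 to 3, against 5.41, 5.20 and 4.96 in vehicle pools 1 to 3. Only calcitriol pool 2 and vehicle pool 3 crossed. The difference was -0.43 (standard error 0.20, 95% interval -0.89 to 0.03, adjusted p = 0.915, limma), and at this signal it cannot be read as one in *CCN2* transcript. *ANKRD1*, which encodes an ankyrin repeat protein and carries 2 cores upstream, was likewise below the negative control level. Its signal was 3.60, 3.61 and 3.57 in calcitriol pools 1 to 3 and 3.54, 4.04 and 3.80 in vehicle pools 1 to 3 (-0.20, standard error 0.18, adjusted p = 0.942, limma).
The lowest *ANKRD1* value of all was in vehicle pool 1, and the groups overlapped. Of *CCN1*, *CCN2* and *ANKRD1*, only *CCN1* thus lay above the negative controls.

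**Figure D2:**
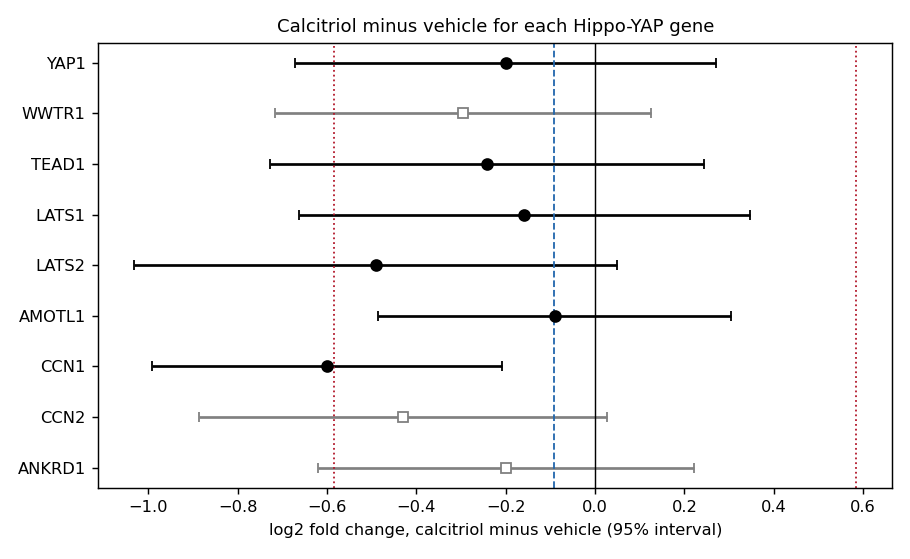
Log2 fold change (calcitriol minus vehicle, horizontal axis) of each measured gene with its 95% interval from limma, genes in order of their role; filled circles lie above the negative controls and open squares do not, red dotted lines mark a fold of 1.5 and the blue dashed line the median of protein-coding genes (-0.09). The interval of *CCN1* alone excludes 0, before adjustment over all features.

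Groups that did not overlap, with calcitriol pools lower throughout, were seen for 2 of the 9 genes, *CCN1* and *LATS2*, and for 0 in the other direction. By the same count 5.55% of all features were lower and 5.16% higher, and of the protein-coding genes above the negative controls 15.5% were lower and 1.1% higher. The highest value of each of the 9 genes was in a vehicle pool, in pool 2 for 4 genes, pool 1 for 3 and pool 3 for 2. The share of all features with their highest value in a vehicle pool was not counted, so this is not read as particular to the set. Relative to the vehicle means, the genes lay at a median of -0.41, -0.19 and -0.15 in calcitriol pools 1 to 3, against -0.13, 0.17 and -0.07 in vehicle pools 1 to 3. The mean signal over all protein-coding genes had its lowest value in calcitriol pool 1 and its highest in vehicle pool 2 as well, at 6.69, 6.80 and 6.70 in calcitriol pools and 6.79, 6.88 and 6.81 in vehicle pools, and its part in these values was not tested.

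The further kinases, scaffolds and regulators of the pathway, which include genes that aid and genes that restrain the LATS kinases, were negative in log2 fold change about as often as other genes. Of 25 listed kinases, scaffolds and upstream regulators, 22 were measured and 17 of these (77.3%) had a negative log2 fold change, against 78.0% of the protein-coding genes above the negative controls, with a median of -0.20. 2 were called lower, 0 were called higher and none passed the adjusted p, with 3 at an unadjusted p under 0.05 (limma). By the same rule, 4.31% of the protein-coding genes above the negative controls were called lower and 0.218% higher. *TAOK2*, which encodes a kinase upstream of the cascade, was called lower, with 6.77, 7.25 and 6.85 in calcitriol pools 1 to 3, against 8.16, 7.36 and 7.50 in vehicle pools 1 to 3 (-0.72, standard error 0.25). Without vehicle pool 1 the difference was -0.47 and the call was lost, as it was without calcitriol pool 1 (-0.62) or calcitriol pool 3 (-0.66), where the unadjusted p was above 0.05.
*FAT4*, which encodes an atypical cadherin, had 7.95, 7.88 and 7.51 in calcitriol pools 1 to 3, against 8.07, 9.10 and 8.20 in vehicle pools 1 to 3 (-0.67, standard error 0.29). It was called lower, but vehicle pool 2 stood far above the other vehicle pools, and without it the difference was -0.35 and the call was lost. The call of *FAT4* was also lost without each of the 3 calcitriol pools (-0.76 without pool 1, -0.72 without pool 2 and -0.54 without pool 3).

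*AJUBA*, the gene of a LIM protein that binds and restrains LATS kinases, lay apart in the same direction without reaching a fold of 1.5, with 11.79, 11.85 and 11.64 in calcitriol pools 1 to 3, against 12.36, 12.37 and 12.03 in vehicle pools 1 to 3 (-0.49, standard error 0.18). *FAT1*, a second atypical cadherin, had a difference of -0.45 (standard error 0.20) with overlapping groups. The MST kinase genes *STK3* (-0.27, standard error 0.20) and *STK4* (-0.21, standard error 0.19), the scaffold gene *SAV1* (-0.28, standard error 0.19) and *NF2*, the gene of merlin (-0.20, standard error 0.19), all overlapped between groups and were chosen as the core of the cascade after their values were seen. *MOB1B*, a co-activator of the LATS kinases, had the highest difference of the list, 0.33 (standard error 0.24), also with overlapping groups, and was likewise chosen afterwards. Groups did not overlap for 6 of the 22 genes, all lower in calcitriol, the direction of 15.5% of the protein-coding genes above the negative controls, against 1.1% in the other.

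The 6 TEAD partners comprised the other TEAD genes and the vestigial-like co-factors that bind TEAD proteins in place of YAP. Of these, 5 (83.3%) had a negative log2 fold change, with a median of -0.17, and 1 was called lower and 0 higher. Of the protein-coding genes above the negative controls, 78.0% were negative, 4.31% were called lower and 0.218% higher. The partner called lower was *VGLL1*, a co-factor of TEAD proteins in epithelial cells. Its signal was 15.15, 14.86 and 15.14 in calcitriol pools 1 to 3, against 15.89, 15.70 and 15.48 in vehicle pools 1 to 3 (-0.64, standard error 0.19, unadjusted p = 0.00854 and adjusted p = 0.915, limma). The groups did not overlap, and the call was lost without calcitriol pool 2 (-0.54) and without vehicle pool 1 (-0.54). The other TEAD genes had smaller differences with overlapping groups: *TEAD2* -0.23 (standard error 0.24), *TEAD3* -0.15 (standard error 0.21) and *TEAD4* -0.16 (standard error 0.18), the last below the negative control level. *VGLL3* had -0.18 (standard error 0.20), and *TEAD3* was added to complete the family after its value was seen.

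A list of known YAP and TAZ target genes, taken without the genes of the set, held 17 genes, of which 15 were measured and 14 lay above the negative controls. 14 of the 15 (93.3%) had a negative log2 fold change, beside 78.0% of the protein-coding genes above the negative controls, and the median was -0.28. 1 was called lower and 0 higher, where 4.31% of those genes were called lower and 0.218% higher, and none passed the adjusted p, with 3 at an unadjusted p under 0.05 (limma).
*F3*, the gene of tissue factor, was the one called lower, with 13.08, 13.42 and 13.52 in calcitriol pools 1 to 3, against 13.96, 14.37 and 13.93 in vehicle pools 1 to 3 (-0.75, standard error 0.21, unadjusted p = 0.00579 and adjusted p = 0.915, limma). The groups did not overlap, and *F3* kept its call when any single array was left out, between -0.84 and -0.61, but with the Tukey biweight average it was -0.54, under a fold of 1.5. *GADD45A*, a growth arrest and DNA damage gene, had 10.22, 10.28 and 10.46 in calcitriol pools 1 to 3, against 10.62, 10.86 and 10.96 in vehicle pools 1 to 3 (-0.49, standard error 0.18). *NT5E*, the gene of the ectonucleotidase CD73, had 7.90, 8.32 and 7.97 in calcitriol pools 1 to 3, against 8.33, 8.67 and 8.85 in vehicle pools 1 to 3 (-0.55, standard error 0.21). Neither reached a fold of 1.5, and in both the groups lay apart, for *NT5E* by 0.0065.

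*AXL*, the gene of a receptor tyrosine kinase, lay apart between groups at -0.42 (standard error 0.21), and *ASAP1*, which encodes an Arf GTPase-activating protein, had the most negative difference, -0.76, with a standard error of 0.46, and its calcitriol pool 2 (5.74) stood far below calcitriol pools 1 and 3 (7.53 and 7.62). *IGFBP3*, a binding protein for insulin-like growth factors, had the only positive difference, 0.16 (standard error 0.20), with 15.35, 15.42 and 15.91 in calcitriol pools 1 to 3, against 15.47, 15.45 and 15.29 in vehicle pools 1 to 3. *AXL*, *ASAP1* and *IGFBP3* were chosen after their values were seen. Groups did not overlap for 6 of the 15 genes, all lower in calcitriol, beside the same 15.5% of genes. *PTPN14*, which encodes a phosphatase that binds YAP, is in both this list and that of the kinases, scaffolds and upstream regulators and is counted among the 6 in each.
With arrays centred on the exogenous controls, none of *TAOK2* (-0.37), *FAT4* (-0.33), *VGLL1* (-0.30) and *F3* (-0.41) kept its call, and *FAT4* and *VGLL1* also lost theirs by quantile normalization (-0.56 and -0.54) and cyclic loess (-0.57 and -0.54). With the Tukey biweight average *FAT4* (-0.22) and *VGLL1* (-0.55) were under a fold of 1.5, and with the ordinary variance *TAOK2* (unadjusted p = 0.0675, limma) and *FAT4* (unadjusted p = 0.127, limma) lost their calls.
The other CCN genes were not above the negative controls. *CCN3*, *CCN4*, *CCN5* and *CCN6*, which encode further matricellular proteins, had log2 fold changes of -0.39, -0.17, 0.10 and -0.46 and overlapping groups, and 0 of the 4 were called.

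**Figure D3:**
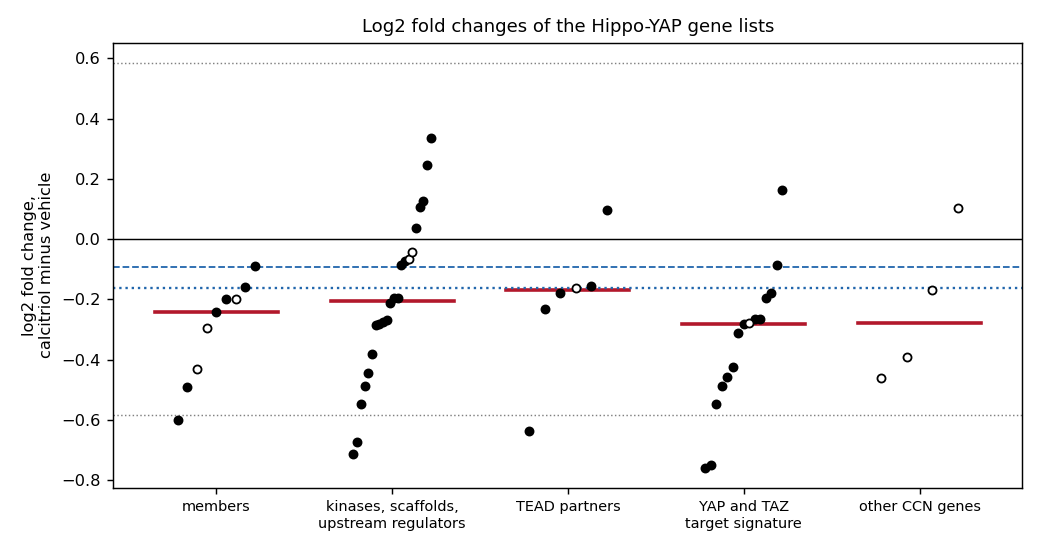
Log2 fold change (calcitriol minus vehicle, vertical axis) of each measured gene in the set itself and in the 4 further lists; filled points lie above the negative controls, open points do not, red bars are list medians, grey dotted lines a fold of 1.5, and the blue lines the medians of all protein-coding genes (dashed, -0.09) and of those above the negative controls (dotted, -0.16). List medians run between -0.28 and -0.17, with no gene above a fold of 1.5 upward.

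The genes whose signals followed *CCN1* most closely over the 6 arrays, among protein-coding genes above the negative controls, were *PRKAG2* (r = 0.99), *VGLL1* (r = 0.99), *EXT1* (r = 0.98), *PSMB2* (r = 0.98) and *TBCE* (r = 0.98), and their differences ran between -0.65 and -0.33. Those closest to *CCN2* were *CNN2*, *TACC3*, *UBXN1*, *TUBA1A* and *PRDX4*, each at r = 0.99. These genes were picked as the highest of 8239. Within the set, *CCN1* had r = 0.81 with *WWTR1*, 0.77 with *CCN2*, 0.70 with *LATS2*, 0.47 with *ANKRD1*, 0.34 with *AMOTL1*, 0.33 with *YAP1*, 0.27 with *TEAD1* and 0.11 with *LATS1*, and *CCN2* had 0.84 with *LATS2*. All are descriptions over 6 arrays that share the treatment difference and each array's scaling. *WWTR1*, *CCN2* and *ANKRD1* lay below the negative control level, so r values that involve them cannot be read as ones between transcripts.

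**Figure D4:**
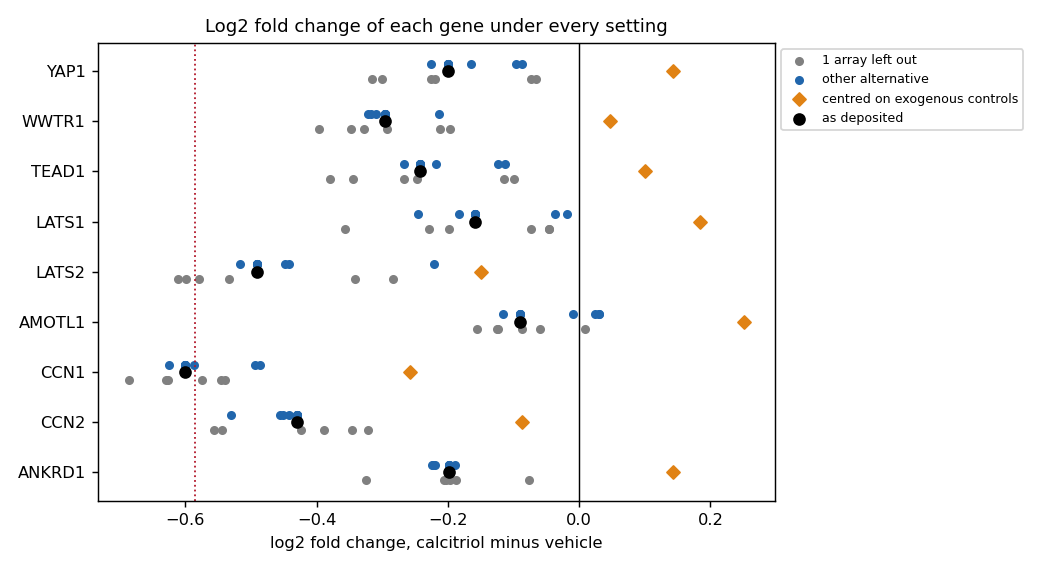
Log2 fold change (calcitriol minus vehicle, horizontal axis) of each measured gene as deposited (black), with 1 array left out (grey), under other scalings, filters and averages (blue; variance models and the block do not move it) and with arrays centred on the exogenous controls (orange diamonds); the red dotted line is a fold of 1.5 lower. *CCN1*, *CCN2* and *LATS2* stayed below 0 in every setting shown, and the other 6 genes lay above 0 at least when arrays were centred on the exogenous controls.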

How the data were processed

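CaSki cells were treated for 24 h with 10 nM calcitriol or with ethanol vehicle, and 3 RNA pools per condition were hybridized to Clariom D arrays. The authors deposited log2 signals for 138745 features, after background correction and normalization in Transcriptome Analysis Console. The summarization algorithm and the genome build were not given in the sources used here. Depth has no meaning for arrays, and the number of pools, 3 per condition, limits the precision. Genes were named through the platform annotation, in which 36176 features carry 1 symbol and 1119 several. For each gene the single-symbol feature with the highest mean was used.

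The 2 conditions were compared over all features with lmFit and eBayes of limma 3.58.1, under R 4.3.3, two-sided, with Benjamini-Hochberg adjustment. Called genes had an unadjusted p under 0.05 and a fold of 1.5 or more. Of the steps, only this comparison was tested on simulated data. The 10 genes and the further lists were chosen with earlier results of these data known. From each further list, the genes called and otherwise up to 4 with the smallest unadjusted p are named, and further genes are named as chosen after their values were seen. A single gene that this rule names is not reported here. Promoter windows came from RefSeq. Other scalings, filters, variance models, averages, the pool number as a replicate block, and fits without 1 array were tried. The other experiments of the study were not analysed here.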

Additional observations from a re-analysis of the deposited data

How the results depend on the processing

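All 9 measured genes had a negative log2 fold change with the deposited values, and so did 3 of 9 with arrays centred on the exogenous controls, which moves the median of all features to 0.34. In that setting the median of the genes was 0.10, 0 genes were called lower, 0 had groups that did not overlap, and positive values were obtained for *AMOTL1* (0.25), *ANKRD1* (0.14), *LATS1* (0.18), *TEAD1* (0.10), *WWTR1* (0.047), *YAP1* (0.14), *CCN4* (0.17), *TEAD2* (0.11), *TEAD4* (0.18), *VGLL3* (0.16), *WWTR1-AS1* (0.20) and *WWTR1-IT1* (0.25). Cyclic loess and quantile normalization each gave 0 genes called lower, with *CCN1* at -0.49 in both. Of the protein-coding genes above the negative controls, 2.11% were called lower by loess and 2.08% by quantile normalization, against 4.31% as deposited. With arrays centred on the exogenous controls this share was 0.42%. *AMOTL1* turned to 0.025 by loess and 0.0303 by quantile normalization, and *WWTR1-IT1* to 0.036 by loess and 0.049 by quantile normalization. *AMOTL1* was also positive with the mean of all its features (0.0302). With the Tukey biweight average, *CCN5* was -0.11. Leaving out 1 array gave 0 to 1 genes called lower, 2 to 5 genes without overlap and medians of -0.34 to -0.20. The call was lost without calcitriol pool 2, vehicle pool 1 or vehicle pool 2. The 5 genes without overlap were counted without vehicle pool 1 and 4 without vehicle pool 3. Groups separate more easily with 2 pools on 1 side, and no share over all features was counted for these fits. The counts without overlap are therefore not comparable with those of 3 pools a side. Without 1 array, *AMOTL1* ranged from -0.16 to 0.0082 (highest without vehicle pool 2), *WWTR1-IT1* from -0.19 to 0.025 (highest without calcitriol pool 1), *WWTR1-AS1* from -0.29 to 0.016 (highest without vehicle pool 1) and *CCN5* from -0.10 (without vehicle pool 3; -0.04 without calcitriol pool 1) to 0.23. The cause of these differences was not tested. The deviations of same-numbered pools correlated at 0.03, 0.06 and 0.06, and those of differently numbered pools at -0.0604 to 0.0034. Any pairing of the arrays by pool number was thus weak. With the pool number as a replicate block, the median was -0.24, 1 gene was called lower, 2 did not overlap and 0 passed the adjusted p (smallest 0.876). No alternative gave a gene called higher or past the adjusted p among those tested. The 3 pools per condition limit the precision, and signal limits what can be read for some genes. *WWTR1*, *CCN2* and *ANKRD1* lay below the negative control level, and with features under the median signal left out *ANKRD1* had no value.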
